A study of Homo sapiens with 4 samples.

Results

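N6-methyladenosine, written m6A, is the most common internal mark of messenger RNA, and it is laid down, read and removed by dedicated proteins. The writers METTL3, METTL14, WTAP, VIRMA and ZC3H13, the readers YTHDF1, YTHDF2, YTHDF3 and YTHDC1 and the eraser ALKBH5 were taken from the table of new RNA synthesis by their gene names, with VIRMA listed under its older symbol KIAA1429. All 10 of these genes had values, among 10147 genes of the table. The series holds TT-seq of genome-edited K562 cells, a human chronic myeloid leukaemia line, whose IWS1 gene carries a degradation tag (dTAG) at the N-terminus in every library, the controls included. The control group was given the solvent DMSO for 1 h and the depleted group, dIWS1, was given 500 nM dTAG7 for 1 h, with 2 libraries labelled in each. In TT-seq, a pulse of 5 min with 500 µM 4-thiouridine (4sU) marks RNA made in that time, which is then fragmented, purified and sequenced, so that the reads of a gene measure its RNA synthesis and not its RNA level. Clones of the edited line were checked by the study, and whether the libraries come from 1 clone is not given in the sources used here. IWS1 is an elongation factor that travels with RNA polymerase II and SPT6, and the comparison asks how its rapid loss changes the synthesis of RNA.

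As background, METTL3 carries the catalytic site of the m6A writer and METTL14 holds the RNA substrate beside it. WTAP places this pair in nuclear speckles, VIRMA serves as a scaffold that steers methylation towards the 3′ ends of transcripts, and ZC3H13 keeps the complex in the nucleus. The mark is largely added to RNA while it is being transcribed. The cytoplasmic YTHDF readers speed the decay of marked mRNA, the nuclear reader YTHDC1 acts in splicing and export, and ALKBH5 takes the methyl group off again. In blood cells the pathway is known for the dependence of myeloid leukaemia cells on METTL3.

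The file gives a mean of normalised reads per gene, and the reads of the single columns were recovered from those means. The 4 libraries gave 3 columns, namely 1 control column that enters the mean 2 times and a pair of dIWS1 columns that differ from each other. The control is therefore treated as 1 column, and its spread is taken to be that of the dIWS1 columns. Which replicate each dIWS1 column came from is not known, so the names column 1 and column 2 are arbitrary. Genes held 29588862 reads in the control column, 20512882 in column 1 and 20727515 in column 2. The size factors of the columns, which come from synthetic RNA spike-ins, were 1.01, 0.9932 and 0.9194. All 8 blood lineage genes looked for (GATA1 and TAL1 among them) had values and none of 6 genes of other cell types did. The tagged gene itself had 3684 reads in the control, 2334 in column 1 and 2427 in column 2, which is a log2 change of -0.55 in its RNA synthesis and does not measure the loss of the protein.

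The promoters of these genes show what kind of start sites are being compared. RefSeq promoter windows on GRCh38.p14 matched 8 of the 10 genes with 10 windows, since WTAP and YTHDF2 have a pair each. The 250 bases before the start were searched on both strands for short motifs, of which the 7-base repeat was chosen after the letters had been seen. The ETS core (CCGGAAG) was in the windows of 3 genes, METTL3, METTL14 and ZC3H13, and in 8.52% of all 35116 promoters. The GC box (GGGCGG) was in those of 5 genes against 42.6% of all promoters, and the CCAAT box in those of 4 genes against 32%. A gene counts here if any of its windows holds the motif, while the shares of all promoters are per window. WTAP and YTHDF2 each held the CCAAT box in only 1 of their windows. The GC content of the windows ran from 50.0% to 77.6%, with a median of 58% for all promoters. The METTL3 window stood apart in holding the letters ACATGGC 3 times, a run that 2.51% of all promoters hold at least once and that WTAP holds 1 time. It also held 1 NRF1 core (GCATGCGC, in 2.63% of promoters), as did ALKBH5. The letters of the TATA box (TATAAA, in 10.7%) occurred 1 time in the METTL3 window, on the strand opposite to the gene. The cAMP response element (TGACGTCA, in 1.65% of promoters) was in the YTHDC1 window alone among the 8. The 4 windows below, also chosen after the letters had been seen, are shown because they hold these motifs, none of which overlaps another there. They are written 5′ to 3′ on the strand of the gene, with these motifs of either strand in capitals: the ETS core and ACATGGC in METTL3 at chr14:21511341-21511590 on the minus strand, the ETS core and the CCAAT box in METTL14 at chr4:118685142-118685391 on the plus strand and in ZC3H13 at chr13:46052747-46052996 on the minus strand, and the GC box and the cAMP response element in YTHDC1 at chr4:68350091-68350340 on the minus strand.
METTL3: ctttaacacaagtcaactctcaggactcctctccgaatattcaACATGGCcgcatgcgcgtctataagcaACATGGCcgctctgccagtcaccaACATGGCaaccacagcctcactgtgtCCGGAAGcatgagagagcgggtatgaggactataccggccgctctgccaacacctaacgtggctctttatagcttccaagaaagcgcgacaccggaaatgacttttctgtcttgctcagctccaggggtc
METTL14: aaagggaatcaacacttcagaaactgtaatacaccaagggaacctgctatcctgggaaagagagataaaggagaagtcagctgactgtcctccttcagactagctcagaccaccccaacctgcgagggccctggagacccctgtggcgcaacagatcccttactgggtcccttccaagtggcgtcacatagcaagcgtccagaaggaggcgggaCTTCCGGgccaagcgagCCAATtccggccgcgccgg
ZC3H13: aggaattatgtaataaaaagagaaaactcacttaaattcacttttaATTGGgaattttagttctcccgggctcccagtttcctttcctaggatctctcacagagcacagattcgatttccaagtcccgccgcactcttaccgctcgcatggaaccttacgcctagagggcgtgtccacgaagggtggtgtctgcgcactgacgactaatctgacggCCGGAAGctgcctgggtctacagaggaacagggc
YTHDC1: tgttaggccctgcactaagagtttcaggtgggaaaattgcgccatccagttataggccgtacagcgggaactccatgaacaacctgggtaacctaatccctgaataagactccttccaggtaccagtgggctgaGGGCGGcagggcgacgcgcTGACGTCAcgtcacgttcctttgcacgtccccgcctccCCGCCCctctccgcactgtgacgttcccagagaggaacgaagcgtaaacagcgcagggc
A match is a run of letters and not a measured binding site. METTL3, METTL14 and ZC3H13 share the ETS core, and their changes in RNA synthesis, given next, ran from -0.43 to -0.22 on the log2 scale. Those of the other genes with a window ran from -0.30 (ALKBH5) to -0.14 (WTAP), so the ranges overlap. A link between motif and change was not tested.

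With the spike-in scaling, 4 of the 10 m6A genes were called lower in dIWS1, METTL3, VIRMA, ZC3H13 and ALKBH5, at an adjusted p under 0.05, whereas with the columns scaled to their total reads none of the 10 was called lower and 6 were called higher. With the spike-ins 0 were called higher by limma with voom weights or by limma-trend, and 0 were higher at an unadjusted p under 0.05. Limma-trend on the same scale called 2 of the 10 lower, METTL3 and VIRMA, and not ZC3H13 or ALKBH5. The call is from limma with voom weights and Benjamini-Hochberg adjustment over 10134 genes. Under that test 64.5% of all genes tested were called lower and 0.109% higher, and the 4 of 10 among the m6A genes are to be read beside that share; the difference was not tested. With total reads the background was 11.1% lower and 15.1% higher. All 10 estimates were below 0 on the spike-in scale, as were 96.4% of all genes. Their median log2 change was -0.23 (-0.33 in column 1 and -0.13 in column 2, and 0.21 with total reads) beside -0.43 for all genes tested, whose quartiles were -0.60 and -0.26. The change of scaling moves the median of all genes up by 0.44, which is larger than the change of any of the 10 genes. All 10 estimates are therefore above 0 with total reads. Scaling to total reads brings the typical gene near 0 by construction, so it cannot show a fall shared by all genes. A gene called higher there is higher relative to the other genes. The study included spike-ins to detect such global changes. The study treated a set number of cells per replicate and added the spike-ins to their lysates. Whether the number of cells differed between the groups after treatment was not tested.

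**Figure D1:**
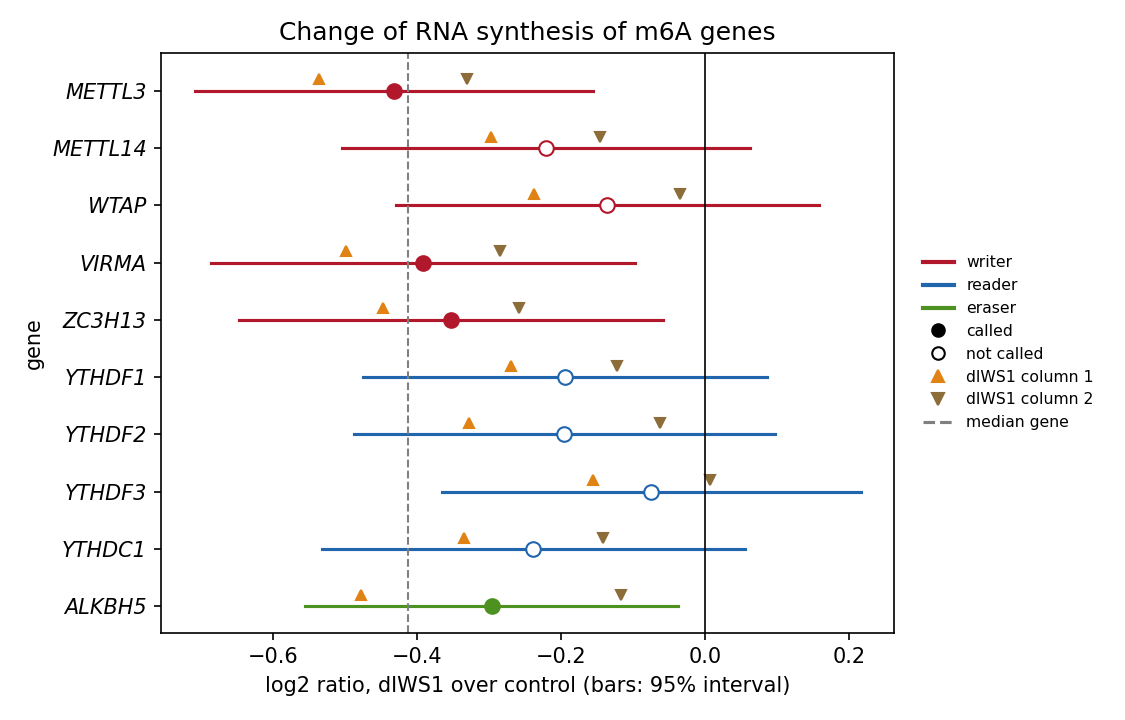
Change of RNA synthesis of the 10 m6A genes on the spike-in scale. The x axis is the log2 ratio of dIWS1 over control, circles are the fitted changes with their 95% intervals, triangles are the single dIWS1 columns over the 1 control column, and the dashed line is the median gene at -0.41; filled circles passed an adjusted p of 0.05, and with total reads all circles move right by about 0.44. The triangles of column 1 lie to the left of those of column 2 in all 10 genes.

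Of the catalytic pair of the writer, METTL3 was called lower and METTL14 was not, and neither was below 0 with total reads. METTL3 (chr14:21498138-21511340, minus strand, 13.2 kb) had 1741 reads in the control column, 1181 in column 1 and 1260 in column 2. Both dIWS1 columns were below the control, by 31.0% and 20.5% after spike-in scaling. Its log2 change was -0.43 ± 0.14 (SE, adjusted p = 0.005025), the lowest of the 10, and 0.0081 with total reads (adjusted p = 0.942). METTL14 (chr4:118685392-118715430, plus strand, 30.0 kb) had 2074 reads in the control, 1660 in column 1 and 1706 in column 2, which puts the columns 18.6% and 9.68% below the control. Its log2 change of -0.22 ± 0.14 did not pass (adjusted p = 0.1594), and its 95% interval ran from -0.50 to 0.06. Per kb of gene span, METTL3 had 1.91 times the new RNA of METTL14 in the control, 1.62 times in column 1 and 1.68 times in column 2. The difference between the changes of the pair was not tested, and the intervals of the pair overlap.

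Of the other writer subunits, VIRMA and ZC3H13 passed and WTAP did not. VIRMA (chr8:94487689-94553469, minus strand, 65.8 kb), the scaffold, had 5935 reads in the control, 4131 in column 1 and 4437 in column 2. Its log2 change was -0.39 ± 0.15 (adjusted p = 0.01665). ZC3H13 (chr13:45954465-46052746, minus strand), the gene of the longest span here at 98.3 kb, had 5548, 4002 and 4224 reads in the same order, with a log2 change of -0.35 ± 0.15 (adjusted p = 0.03125). In limma-trend ZC3H13 did not pass (adjusted p = 0.0665 with a pseudocount of 0.5 and 0.0742 with 5). In both genes the dIWS1 columns lay at least 16.4% below the control after spike-in scaling, while with total reads neither gene was below 0 (0.050 and 0.089). WTAP (chr6:159726693-159756319, plus strand, 29.6 kb), the subunit that brings the catalytic pair to speckles, had 5719 reads in the control, 4771 in column 1 and 5084 in column 2. Column 2 was only 2.39% below the control, and the log2 change of -0.14 ± 0.15 did not pass (adjusted p = 0.4041). Of the 5 writers 3 were thus called lower, beside 64.5% of all genes, with a median log2 change of -0.35. With total reads none was called lower, beside 11.1% of all genes. METTL14 and WTAP were then called higher, beside 15.1% of all genes, and the median was 0.089.

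None of the 4 readers was called, beside 64.5% of all genes called lower, with a median log2 change of -0.20. With total reads all 4 were called higher, beside 15.1% of all genes. On the spike-in scale 0 of the 4 passed in limma at an unadjusted p under 0.05 either. With the control column entered 2 times 2 did, but that setting counts 1 column as 2 replicates. YTHDF3 (chr8:63168553-63212788, plus strand, 44.2 kb) had 7698 reads in the control, 6797 in column 1 and 7040 in column 2. Column 1 was 10.2% below the control and column 2 was level with it (log2 ratio 0.006), the single case in which a dIWS1 column of these genes was not below the control. The log2 change was -0.08 ± 0.15 (adjusted p = 0.6456, 95% interval -0.37 to 0.22). The paralogs YTHDF1 (chr20:63195429-63216131, minus strand, 20.7 kb) and YTHDF2 (chr1:28736624-28769775, plus strand, 33.2 kb) had log2 changes of -0.20 ± 0.14 and -0.20 ± 0.15. YTHDF1 had 1882 reads in the control, 1536 in column 1 and 1574 in column 2, and both dIWS1 columns were below the control by 17.0% and 8.16%. YTHDF2 had 6467, 5070 and 5636 reads, and its columns were less alike, at 20.3% and 4.3% below the control. Neither passed (adjusted p = 0.2088 and 0.2279). The nuclear reader YTHDC1 (chr4:68310387-68350090, minus strand, 39.7 kb) had 5896 reads in the control, 4598 in column 1 and 4865 in column 2, with a log2 change of -0.24 ± 0.15 that did not pass (adjusted p = 0.1433). A fall of up to 0.53 on the log2 scale lies within the interval of YTHDC1, so the test does not show that the readers kept their synthesis.

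The eraser ALKBH5 (chr17:18183828-18209954, plus strand, 26.1 kb) had the fewest reads of the 10, with 990 in the control, 699 in column 1 and 831 in column 2. Column 1 was 28.2% and column 2 was 7.83% below the control, the widest gap between columns among these genes. ALKBH5 was tested with a spread pooled over all genes, so its error does not widen with that gap. Its log2 change of -0.30 ± 0.13 passed narrowly on the spike-in scale (adjusted p = 0.04001) and was 0.14 with total reads (adjusted p = 0.324). With the control column entered 2 times, as in the deposited means, ALKBH5 was not called and METTL14 was. That setting counts 1 column as 2 replicates that do not differ, so its calls do not rest on a spread between control libraries. The remaining eraser, FTO, is not analysed here.

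Set against other genes rather than against the spike-ins, the m6A genes ranged from the middle of the distribution (METTL3, VIRMA and ZC3H13) to its upper part (YTHDF3 and WTAP). The median gene, over genes with a mean of at least 100 normalised reads, had a log2 change of -0.41, and 9 of the 10 genes lay above it. METTL3 lay at it, 0.02 below, and 48.8% of genes had a lower change. VIRMA and ZC3H13 were 0.02 and 0.06 above it, with 55.2% and 61.4% of genes lower. YTHDF3 was 0.34 above it and above 93.5% of genes, WTAP 0.28 above it and above 89.4%, and YTHDF1 and YTHDF2 0.22 above it. With the median gene set to 0, none of the 10 passed in limma and 1, YTHDF3, was higher at an unadjusted p under 0.05 (adjusted p = 0.148). With total reads, the 6 that were called higher were METTL14, WTAP, YTHDF1, YTHDF2, YTHDF3 and YTHDC1, with log2 changes from 0.20 to 0.37, whereas each was below 0 on the spike-in scale. The largest of these, YTHDF3, had an adjusted p of 0.00451. The writers METTL3, VIRMA and ZC3H13 were within 0.09 of 0 on that scale.

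**Figure D2:**
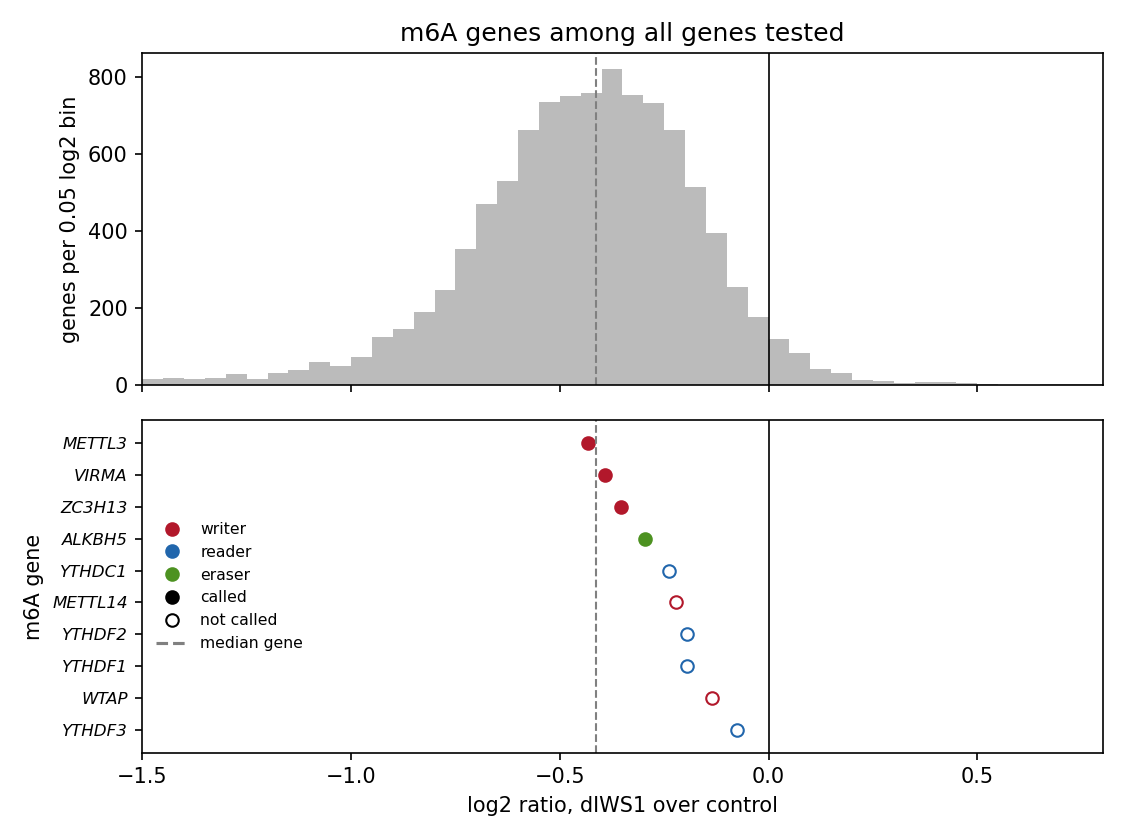
The m6A genes among all 10134 genes tested. The upper panel counts genes per bin of 0.05 of the log2 ratio of dIWS1 over control on the spike-in scale (132 genes lie outside the axis), the lower panel has 1 dot per m6A gene, filled where it was called, and the dashed line is the median gene; METTL3 lies at that line and the other 9 genes to its right.

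The columns differed in the same way in all 10 genes. Column 1 was lower than column 2 by 0.15 to 0.36 on the log2 scale, least in YTHDF1 (-0.147) and most in ALKBH5 (-0.361). The median over genes with a mean over 100 was -0.12 with an SD over genes of 0.13, and all 10 gaps were wider than that median. The counting error of a gene's log2 ratio, taken for both dIWS1 columns together over the control, was 0.059 or less. The counting error of the gap between the columns was not computed, so the gaps are not set against it. In column 1 the median log2 ratio of the 10 genes to the control was -0.33 beside -0.47 for the median gene, and in column 2 it was -0.13 beside -0.36. Both columns are set against the same control column, so these are not separate comparisons.

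The changes of the 10 genes followed no order by gene span. The study counted reads over whole genes, so a long gene gathers more reads. Exons made up 7.11% of the span in WTAP and 22.1% in METTL14, the extremes of the 10, which leaves most of the counted sequence in introns. In classes set at the quartiles of span, genes under 10.7 kb had a median log2 change of -0.48, those up to 27.3 kb -0.39, those up to 63.9 kb -0.34 and longer ones -0.49. None of the m6A genes fell in the shortest class, 3 in the second, 5 in the third and 2 in the longest. The third class, with METTL14, WTAP, YTHDF2, YTHDF3 and YTHDC1, is also the class with the smallest median fall. METTL3 lay below the median of its class and the other 9 genes above theirs. Across the 10 genes, which share their libraries, Spearman's rho of change with span was -0.03 and that of change with the level per kb in the control was 0.55, given as descriptions.

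**Figure D3:**
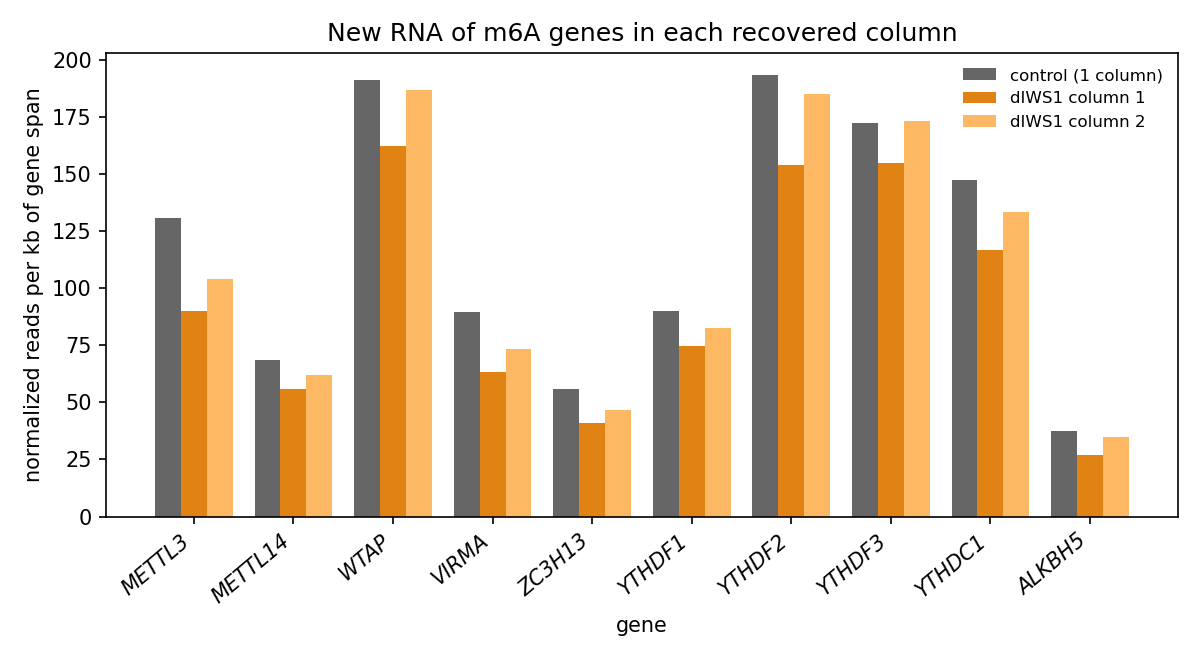
New RNA of the 10 m6A genes in the 3 recovered columns. Bars are normalised reads per kb of gene span, starting at 0 and with no error bars since each is 1 column; WTAP, YTHDF2 and YTHDF3 are the 3 highest and ALKBH5 is the lowest in every column.

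Per kb of span, the level of new RNA in the control ran from 37.5 normalised reads in ALKBH5 to 193 in YTHDF2. The order from the top was YTHDF2 (193), WTAP (191), YTHDF3 (172), YTHDC1 (147), METTL3 (131), YTHDF1 (90.0), VIRMA (89.4), METTL14 (68.4), ZC3H13 (55.9) and ALKBH5 (37.5). YTHDF2 and WTAP did not differ beyond counting error in the control or in column 2, and changed places in column 1, where YTHDF2 was also level with YTHDF3 (a ratio of 0.995). YTHDF1 and VIRMA did not differ in the control, while in both dIWS1 columns YTHDF1 was above VIRMA, at 74.7 against 63.2 and 82.7 against 73.4. All other neighbours in the control's order differed beyond counting error in each column, which is a statement about these columns and not about replicates. The writers did not share a level of synthesis, that of WTAP per kb being 3.42 times that of ZC3H13 in the control. The ratio of YTHDF2 to YTHDF1 was 2.15 in the control, 2.06 in column 1 and 2.24 in column 2, so this ratio moved little and not in one direction.

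The other genes of the pathway were called lower at about the rate of all genes on the spike-in scale. Of 25 genes listed, 21 had values, of which 13 were called lower, none higher and 8 not, with a median log2 change of -0.36, whereas with total reads 3 were called lower and 7 higher. Over all genes the shares were 64.5% lower, and 11.1% lower and 15.1% higher with total reads. Of the 9 partners of the writer complex and other methyltransferases, 8 were called lower, with a median of -0.63 beside the -0.43 of all genes. With total reads 2 were called lower and 1 higher. Whether these 9 differ from other genes was not tested. ZCCHC4 passed narrowly (adjusted p = 0.04924) and did not pass in limma-trend (adjusted p = 0.0808 with a pseudocount of 0.5). METTL4 did not pass in limma-trend with a pseudocount of 5 (adjusted p = 0.0508). PCIF1, which methylates the first adenosine next to the cap, had the lowest change, with 353 reads in the control, 191 in column 1 and 184 in column 2 and a log2 change of -0.83 ± 0.14 (adjusted p = 1.247e-07). RBM15, which binds RNA for the writer complex and is a partner of WTAP, had 4846, 2810 and 2842 reads and a log2 change of -0.70 ± 0.15 (adjusted p = 2.305e-05). Its paralog RBM15B had 223, 133 and 128 reads and a log2 change of -0.69 ± 0.16 (adjusted p = 8.986e-05). RBM15 and RBM15B are short genes of 7.3 and 6.6 kb, in the shortest class. With total reads PCIF1 and RBM15 were still called lower and RBM15B was not (adjusted p = 0.0489, 0.0142 and 0.243). Recentred on the median gene, PCIF1 passed and RBM15 and RBM15B did not (adjusted p = 0.044, 0.245 and 0.299). With each dIWS1 column centred on its own median gene, RBM15 passed and PCIF1 and RBM15B did not (adjusted p = 0.0488, 0.0681 and 0.189). CBLL1, the ubiquitin ligase-like subunit also called HAKAI, was the 1 of the 9 that did not pass, at -0.21 ± 0.15.

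**Figure D4:**
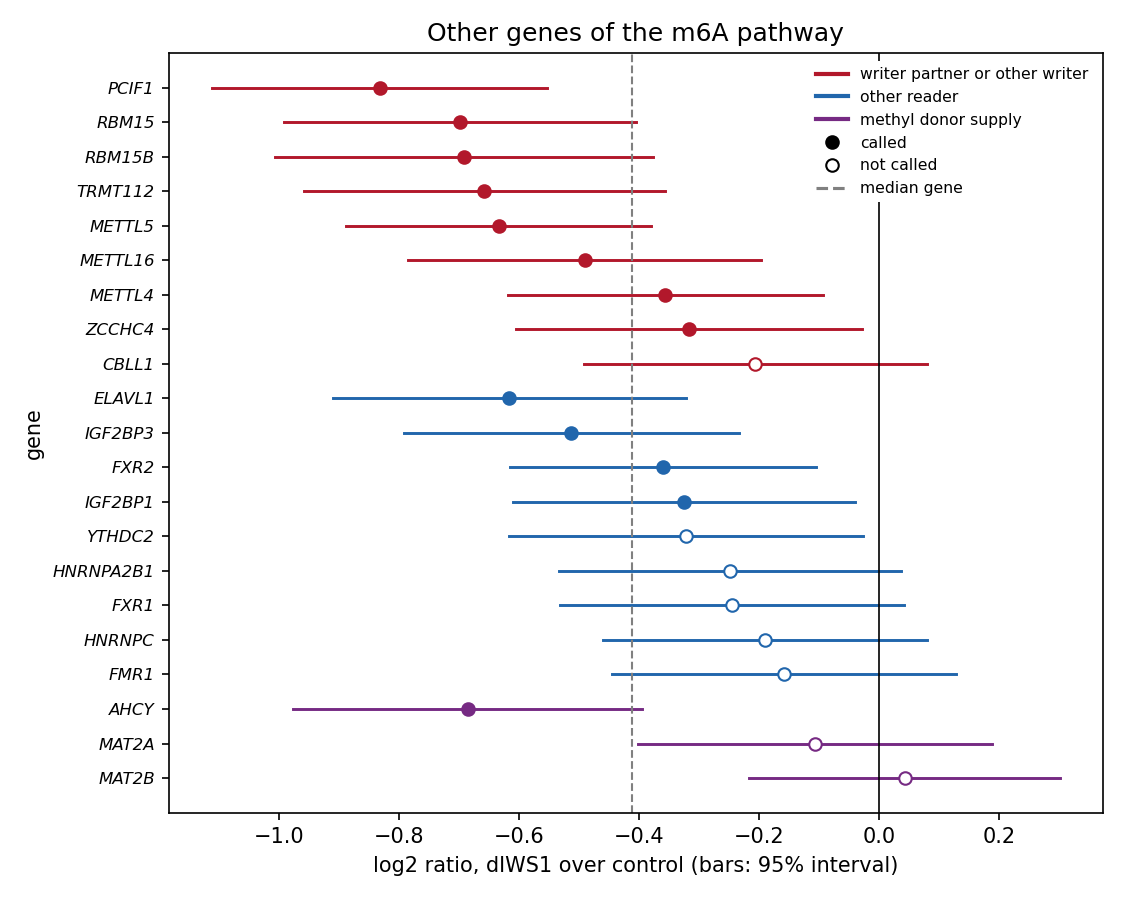
Other genes of the m6A pathway on the spike-in scale. The x axis is the log2 ratio of dIWS1 over control with its 95% interval, circles are filled where the gene was called, colours mark the 3 sublists, and the dashed line is the median gene; 6 of the 9 genes of the writer list, ELAVL1, IGF2BP3 and AHCY lie left of that line.

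Of the 9 further readers with values, 4 were called lower (IGF2BP1, IGF2BP3, FXR2 and ELAVL1), beside 64.5% of all genes, with a median of -0.32, while with total reads none was called lower and 4 were called higher, beside 15.1% of all genes. IGF2BP1 did not pass in limma-trend (adjusted p = 0.127 with a pseudocount of 0.5). FXR2 did not pass with the control column entered 2 times, a setting that counts 1 column as 2 replicates. YTHDC2, the YTH protein with a helicase domain, missed the threshold narrowly at -0.32 ± 0.15 (adjusted p = 0.05), and passed among genes with a mean of at least 100 (adjusted p = 0.049). FMR1, which encodes the RNA-binding protein of fragile X syndrome, was the highest of them at -0.16 ± 0.15 (adjusted p = 0.3183), with 2312 reads in the control, 1959 in column 1 and 1960 in column 2. The 3 genes that supply the methyl donor S-adenosylmethionine, or clear its product after methylation, split. AHCY, which clears the product of methylation, was called lower at -0.69 ± 0.15 (adjusted p = 2.7e-05), also with total reads (adjusted p = 0.0326) but not when recentred on the median gene (adjusted p = 0.265). MAT2A and MAT2B, the catalytic and regulatory subunits of the enzyme that makes the donor, were the highest of the 21, at -0.11 ± 0.15 (adjusted p = 0.5156) and 0.04 ± 0.13 (adjusted p = 0.7718). MAT2B had 926 reads in the control, 880 in column 1 and 925 in column 2, and it alone was above 0 among the 10 m6A genes and these 21; with total reads its log2 change was 0.48 and was called higher.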

How the data were processed

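New RNA was measured by TT-seq in the 4 libraries described above. The authors aligned reads to GRCh38 with spike-in sequences (STAR 2.6.0, unique alignments), counted them by strand over RefSeq genes without overlapping genes and kept genes with a median of over 10 reads per kb. The deposited signal is the mean of spike-in-normalised reads over the libraries. The deposited log2 fold change, its error, test statistic and p-values hold the authors' own DESeq2 comparison and are not given here. That log2 column served only to recover the reads: it told which columns are dIWS1 and which is control, with dIWS1 taken as the numerator, which the table does not name, and it bounded the search for larger means, so the recovered ratio of groups is not independent of it.

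Whole reads were recovered from the steps of the deposited means, in 1 way for 10134 of 10136 genes with a mean above 0 (99.98%), with means up to 60 searched in full and larger ones within 0.02 of that log2 value, with dIWS1 columns that do not differ greatly; 2 genes with several ways were left out. The control column, which enters 2 times, was counted once. Reads with the spike-in size factors were fitted with limma 3.58.1 (R 4.3.3) with voom weights, 1 control column against 2 dIWS1 columns, and called at a two-sided adjusted p under 0.05 (Benjamini-Hochberg). The estimated spread was pooled over all genes (about 10100 degrees of freedom), so p-values measure the spread between the dIWS1 columns over all genes. The gap between the columns of a single gene hardly enters the error of that gene. Ratios of single columns used a pseudocount of 0.5, and no filter on low values was set. Recovery and fit were tested on simulated data. The 10 genes were all named, with the lowest and highest 3 of the pathway list; other pathway genes were named after their values were seen. Genes, lists and alternatives were chosen with earlier results of these data known. Alternatives were total reads, recentring on the median gene, the control entered 2 times, minimum means of 10 and 100, limma-trend, other thresholds, leaving out a column and exon lengths. Gene spans and promoters are from RefSeq on GRCh38.p14, exons from GENCODE. Python 3.11.15 drew the figures with matplotlib 3.10.9. Of the pathway list, 4 genes (IGF2BP2, RBMX, PRRC2A, FTO) were not analysed here, and 1 lineage marker is not reported here.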

Additional observations from a re-analysis of the deposited data

How the results depend on the processing

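The sign of the results depended on the scaling, and scaling to total reads cannot show a fall shared by all genes. With total reads in genes, the m6A genes called lower went from 4 to 0, those called higher from 0 to 6 and their median from -0.23 to 0.21. Recentred on the median gene the calls were 0 lower and 0 higher with a median of 0.18, and with each dIWS1 column centred on its own median gene, an alternative chosen after seeing the data, 0 lower, 1 higher (YTHDF3, adjusted p = 0.0439) and a median of 0.18. Among the 10 m6A genes and the 21 others of the pathway, the log2 changes that changed sign were, with total reads, METTL3 0.0081, METTL14 0.22, WTAP 0.31, VIRMA 0.050, ZC3H13 0.089, YTHDF1 0.25, YTHDF2 0.25, YTHDF3 0.37, YTHDC1 0.20, ALKBH5 0.14, FXR2 0.081, METTL4 0.085, IGF2BP1 0.12, YTHDC2 0.12, ZCCHC4 0.12, HNRNPA2B1 0.19, FXR1 0.20, CBLL1 0.23, HNRNPC 0.25, FMR1 0.28 and MAT2A 0.33. Recentred, they were METTL14 0.19, WTAP 0.28, VIRMA 0.021, ZC3H13 0.060, YTHDF1 0.22, YTHDF2 0.22, YTHDF3 0.34, YTHDC1 0.17, ALKBH5 0.12, FXR2 0.052, METTL4 0.056, IGF2BP1 0.087, YTHDC2 0.091, ZCCHC4 0.096, HNRNPA2B1 0.16, FXR1 0.17, CBLL1 0.21, HNRNPC 0.22, FMR1 0.25 and MAT2A 0.31. With each column centred, they were METTL14 0.19, WTAP 0.28, VIRMA 0.022, ZC3H13 0.061, YTHDF1 0.22, YTHDF2 0.22, YTHDF3 0.34, YTHDC1 0.18, ALKBH5 0.12, FXR2 0.053, METTL4 0.057, IGF2BP1 0.089, YTHDC2 0.092, ZCCHC4 0.097, HNRNPA2B1 0.17, FXR1 0.17, CBLL1 0.21, HNRNPC 0.22, FMR1 0.25 and MAT2A 0.31. METTL3 was -0.02 under both kinds of centring. Limma-trend called 2 of the 10 lower (METTL3 and VIRMA) with a pseudocount of 0.5 or of 5, an adjusted p under 0.01 left 1 (METTL3), and a minimum log2 change of 0.5 left 0. The count of 4 stood at an adjusted p under 0.1 and at minimum means of 10 and 100. With the control entered 2 times it was also 4, with METTL14 in the place of ALKBH5. That setting counts 1 column as 2 replicates that do not differ, so its calls do not rest on a spread between control libraries. Over all genes, 6532 were called lower and 11 higher, against 1124 and 1526 with total reads, 527 and 272 recentred, 557 and 348 with each column centred, 7881 and 61 with the control entered 2 times, and 5588 and 26, or 5624 and 16, with limma-trend at the smaller or larger pseudocount. The cause of these changes was not tested, beyond the scalings' own construction. Leaving out a dIWS1 column leaves 1 column against 1, so it gives values with no test, and the median of the 10 genes was then -0.13 without column 1 and -0.33 without column 2. No paired analysis was possible because the recovered columns carry no replicate number and the control is a single column. With the control reads of whole genes divided by exon length in place of span, WTAP was highest (2691 normalised reads per kb). METTL14 (309) and ALKBH5 (310) were lowest and nearly level. These are not levels over exons, since the reads include introns. Depth was 990 or more control reads in each of the 10 genes, and the counting part of the error was 0.059 or less on the log2 scale.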
